A study of Mus musculus with 12 samples.

Results

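The cell cycle cyclins of types A, B, D and E were examined in DKO172 cells. This mouse line came from a tumor of the fallopian tube, and its gender is labelled female. The 8 genes are Ccna2, Ccnb1, Ccnb2, Ccnd1, Ccnd2, Ccnd3, Ccne1 and Ccne2. They were taken as every non-control probe of the array whose transcript accession maps to one of these symbols, which gave 12 of the 55681 probes. All 12 probes were well above background on all 12 arrays, and all 8 genes were among the 24184 genes or transcripts tested. Ccnb1 has 3 probes, Ccnd3 and Ccne1 have 2 probes each, and the other genes have 1 probe.

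The 4 groups, of 3 arrays each, differ in the insert of a plasmid with hygromycin resistance. The inserts were DICER1 without a mutation (WT), DICER1 D1709N, DICER1 G1809R and, as the control, GFP. DICER1 releases mature miRNAs from their hairpin precursors as an RNase III enzyme, and both substitutions are hotspot mutations of its RNase IIIb domain. Every group, the control included, received 2 µg of plasmid, was plated again 24 h later, spent 84 h in 300 µg/ml hygromycin and was collected at 108 h. All arrays come from 1 cell line, and neither the promoter of the inserts nor the state of the line's own Dicer1 gene is named in the labels. The labels do not say whether replicates were grown separately, so p-values cover only how these samples vary, which can be technical.

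Cyclins are the regulatory subunits that switch on the cyclin-dependent kinases (CDKs). D cyclins activate CDK4 and CDK6 in G1 and link growth signals to the retinoblastoma protein, and E cyclins activate CDK2 at the entry into S phase. Cyclin A2 works with CDK2 in S phase and with CDK1 in G2, and the B cyclins drive mitosis with CDK1. The mRNAs of cyclins A, B and E rise and fall within each cycle, whereas those of D cyclins follow growth signals more than the phase. In bulk RNA, a change in the share of cells in a phase and a change in mRNA per cell cannot be told apart.

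The promoters of the B cyclins are shown because CCAAT boxes and the cell cycle homology region (CHR, TTTGAA) are the elements classically described for genes of G2 and mitosis. Of the 8 genes, 4 have a promoter in the RefSeq table used (build GRCm38.p6), and the sequences give the 250 bases before the gene start in the direction of transcription. Capitals mark CCAAT and TTTGAA. The Ccnb1 window is chr13:100786487-100786736 and the Ccnb2 window chr9:70421555-70421804, both on the minus strand.
Ccnb1: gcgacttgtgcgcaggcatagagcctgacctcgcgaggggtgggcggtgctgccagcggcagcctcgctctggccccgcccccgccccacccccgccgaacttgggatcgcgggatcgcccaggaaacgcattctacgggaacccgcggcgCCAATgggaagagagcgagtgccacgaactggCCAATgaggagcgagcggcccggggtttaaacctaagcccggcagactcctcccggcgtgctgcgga
Ccnb2: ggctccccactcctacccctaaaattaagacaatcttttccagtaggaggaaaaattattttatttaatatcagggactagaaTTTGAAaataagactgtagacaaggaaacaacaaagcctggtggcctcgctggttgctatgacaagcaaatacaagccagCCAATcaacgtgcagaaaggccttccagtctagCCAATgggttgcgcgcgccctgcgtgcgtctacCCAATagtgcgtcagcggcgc

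Both strands were searched, and the motifs do not overlap one another in these windows. The Ccnb1 window holds 2 CCAAT matches and the Ccnb2 window 3, with first bases 87, 54 and 21 bases before the Ccnb2 start. The Ccnb2 window also holds 1 TTTGAA match, with its first base 167 bases before the start, farther from it than the CCAAT matches. Whether this match acts as a CHR was not tested. Of the 2 Ccnd3 windows in the table, 1 holds a single CCAAT match, and the Ccne1 window holds none of these motifs. The E2F motif TTTNNCGC was found in none of the 5 windows. Over all 32851 promoters of the table cut to the same length, 33.8% hold CCAAT, 16% hold TTTGAA and 4.28% hold TTTNNCGC. These matches describe the letters only.

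Mature miRNAs of 3 families are shown because DICER1 makes them and because D-type and E-type cyclin mRNAs are among their textbook targets. Capitals mark the seed, bases 2 to 8, as read from the RefSeq table. No miRNA was measured on these arrays.
let-7a-5p: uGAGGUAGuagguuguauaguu
let-7b-5p: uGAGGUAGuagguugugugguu
miR-15a-5p: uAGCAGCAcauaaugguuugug
miR-16-5p: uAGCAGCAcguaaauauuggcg
miR-34a-5p: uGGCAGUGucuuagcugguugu

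The 2 let-7 members share the seed GAGGUAG, miR-15a and miR-16 share AGCAGCA, and miR-34a has GGCAGUG.

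Levels are log2 processed intensities relative to the 75th percentile of the same array, and each gene is compared only with itself across arrays. Replicate 1 of every group lay on slide 1, where 68.1% to 82.7% of the probes were well above background, and replicates 2 and 3 lay on slide 2, where 49.5% to 62.6% were. WT replicate 1 stood apart with the highest share, 82.7%, and results that rest on it are given without it as well. Arrays with the same replicate number deviated together in all groups, so the fit with the replicate number as a block is given wherever it changes the call of a cyclin. The line expressed the epithelial keratins Krt8 and Krt18, Wt1 and the oviduct glycoprotein gene Ovgp1 above background on 12 of 12 arrays, and Epcam on 11, Cdh1 on 10, and Pax8 and the ciliary regulator Foxj1 on only 4. The mesenchymal genes Vim and Fn1 were above background on 12 arrays. Of 6 endothelial genes, Kdr and Pecam1 were above background on 12 arrays, Vwf on 11, Tek on 1, and Cdh5 and Emcn on 0. Of the leukocyte genes reported here, Itgam, Csf1r and Cd3e were above background on 12 arrays, Adgre1 on 8, Ptprc on 5 and Lyz2 on 1.

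With wild-type DICER1, cyclins A2, B2 and D3 fell about 2-fold against GFP. The changes were 2.23-fold for Ccna2, 1.93-fold for Ccnb2 and 1.86-fold for Ccnd3. Ccne1, Ccne2 and Ccnb1 lay lower in every pair of arrays and passed the threshold with the replicate block, in which Ccnd1 was higher. With either mutant no change of the 8 genes against GFP was called. Their log2 differences from GFP ran from −0.21 to 0.50 with D1709N and from −0.21 to 0.40 with G1809R.

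Of the 8 cyclins, 3 were called between WT and GFP, all lower, where 2.95% of all genes tested were called and 1.76% were called lower. A gene is called where its p-value from limma, after Benjamini-Hochberg adjustment across the whole table, is under 0.05. With the replicate number as a block 7 were called, 6 lower and 1 higher, where 17.8% of all genes were, 8.6% lower and 9.18% higher. In 5 of the 8 genes every WT array lay below every GFP array, which held for 10.2% of all genes. The median log2 change of the 8 was −0.92, beside 0.04 over all genes. Scaling to the array median in place of the 75th percentile, or fitting WT and GFP alone, left 0 of the 8 called. The median log2 change of the 8 was −1.21 under the first, where that of all genes was −0.24. Under the second it stayed at −0.92.

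Smooth muscle markers (Acta2, Tagln, Cnn1, Myh11 and Des) were examined beside the cyclins, and differences were called with the replicate block but not in the fit without one. Their summed level, in multiples of the array's 75th percentile, was 34.1 to 140 with GFP, 76 to 181 with WT, 20.4 to 119 with D1709N and 23.2 to 89.6 with G1809R, and 3 to 5 of the 5 were well above background on an array. Limma called 0 of the 5 between WT and GFP, at a median log2 change of 0.81. At an unadjusted p under 0.05 it gave 1, where 15.4% of all genes passed. With the block 2 were called higher, where 9.18% of all genes were. Against WT limma called 0 with either mutant, at medians of −1.02 with D1709N and −1.32 with G1809R. At an unadjusted p under 0.05 it gave 2 and 3, where 13.7% and 12.2% of all genes passed. With the block 4 were called lower in each, where 8.42% and 6.31% of all genes were. Against GFP limma called 0 with either mutant, at medians of −0.57 with D1709N and −0.61 with G1809R. At an unadjusted p under 0.05 it gave 0 in each, where 7.21% and 6.64% of all genes passed. With the block 2 were called lower than GFP with each mutant, where 2.49% and 1.98% of all genes were. The part of these markers in the cyclin differences was not tested.

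**Figure D1:**
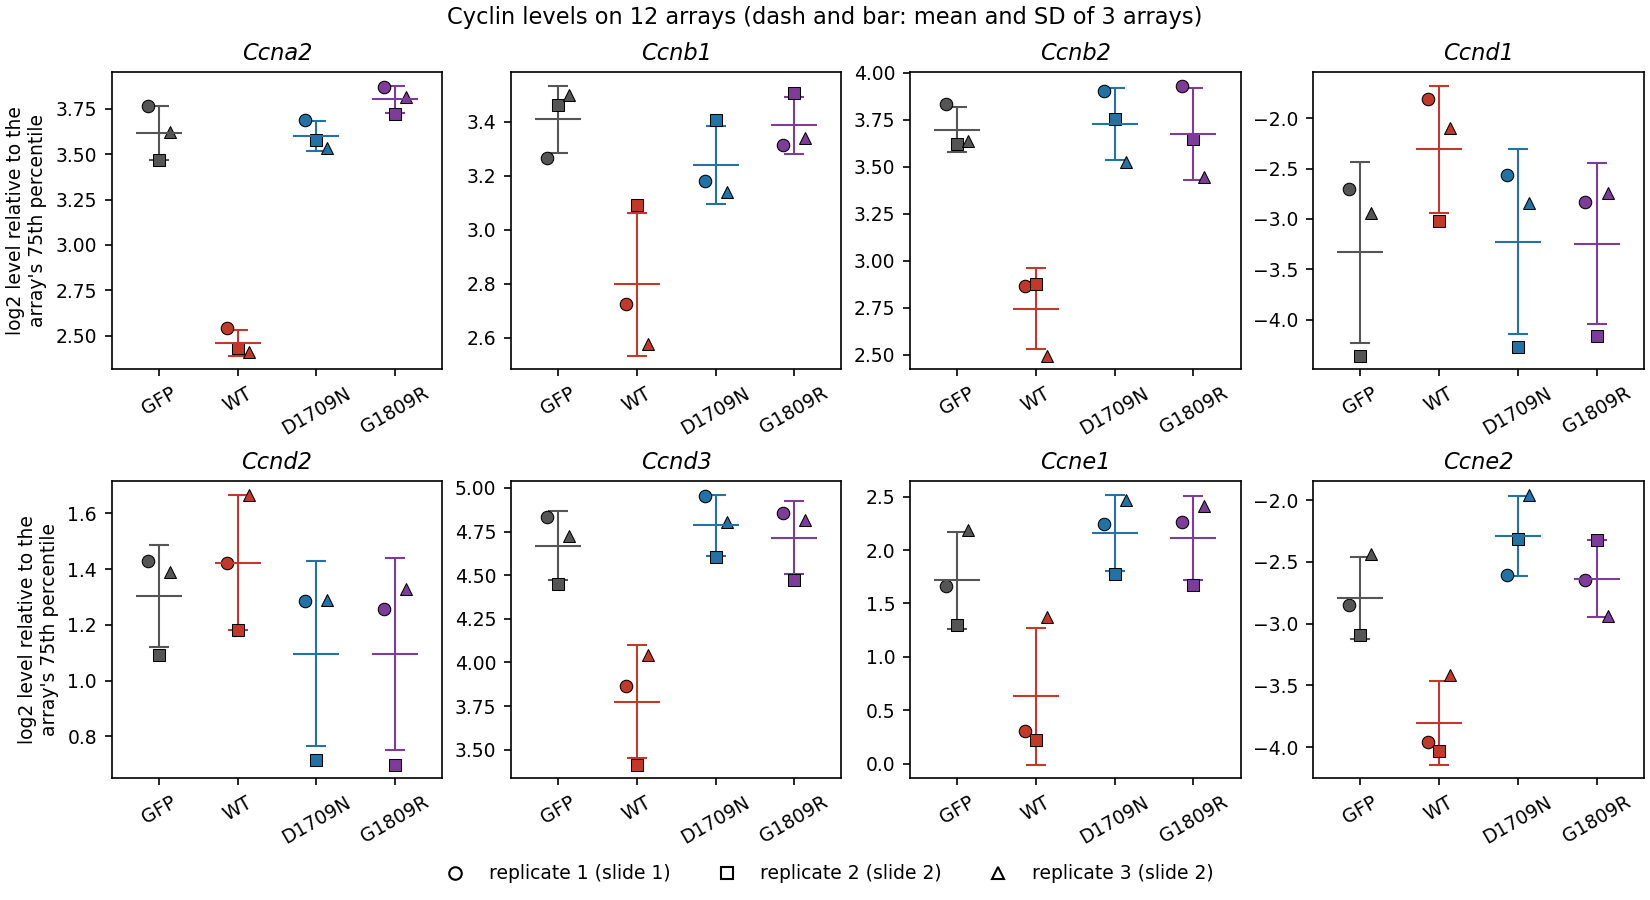
Log2 level of each cyclin relative to the array's 75th percentile (y axis) in the 4 groups (x axis), with 1 point per array shaped by replicate number and a dash and bar for the mean and SD of 3 arrays. WT lies lowest for Ccna2, Ccnb1, Ccnb2, Ccnd3, Ccne1 and Ccne2 and highest for Ccnd1, and replicate 2 lies lowest in every group for Ccnd1.

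Ccna2, the cyclin of S phase and G2, gave log2 levels of 3.76, 3.47 and 3.62 on the GFP arrays, in the order of the replicate numbers. The WT arrays gave 2.54, 2.43 and 2.41. D1709N gave 3.69, 3.58 and 3.53, and G1809R gave 3.87, 3.72 and 3.81. All 3 WT arrays lay below all 9 others, and the GFP, D1709N and G1809R arrays spanned a narrow range.

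Against GFP, Ccna2 fell with WT by 1.16 on the log2 scale (± 0.11 SE, limma adjusted p = 0.00193), by 1.03 to 1.22 in the 3 pairs of the same replicate number. It was higher than WT by 1.14 with D1709N (adjusted p = 0.00276) and by 1.34 with G1809R (adjusted p = 0.00116), in 3 of 3 pairs each. These were the only cyclin calls present in each of the 12 fits that left out 1 array, with adjusted p of 0.00259 to 0.023 over the 3 comparisons. In order of mean level the groups were G1809R (3.80 ± 0.08, SD, n = 3), GFP (3.62 ± 0.15), D1709N (3.60 ± 0.08) and WT (2.46 ± 0.07). The step from D1709N down to WT was the only one between neighbours that passed the test.

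Ccnb2, a B cyclin of mitosis, gave 3.83, 3.62 and 3.64 with GFP and 2.87, 2.88 and 2.49 with WT. D1709N gave 3.90, 3.76 and 3.52, and G1809R gave 3.93, 3.65 and 3.44. WT was again below every other array, and the other groups overlapped one another.

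Ccnb2 fell with WT by 0.95 (± 0.17 SE, adjusted p = 0.0189), in 3 of 3 pairs, and was higher than WT by 0.98 with D1709N (adjusted p = 0.0231) and by 0.93 with G1809R (adjusted p = 0.0266). Leaving out WT replicate 2, or replicate 1 or 3 of GFP, ended the call against GFP (adjusted p up to 0.0816). Those against WT were lost without any single WT array or any single array of the mutant compared (adjusted p up to 0.105 for D1709N and 0.0934 for G1809R). With the replicate block all 3 were called, at adjusted p = 0.000638, 0.000745 and 0.000977.

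Ccnb1, the main mitotic partner of CDK1, gave 3.27, 3.46 and 3.50 with GFP and 2.73, 3.09 and 2.58 with WT at its brightest probe. D1709N gave 3.18, 3.41 and 3.14, and G1809R gave 3.31, 3.51 and 3.34. The WT arrays lay below all others here too, with WT replicate 2 just under D1709N replicate 3.

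The Ccnb1 difference of WT from GFP was −0.61 (± 0.15 SE, adjusted p = 0.0626), which passed with the block (0.0053) or without WT replicate 2 (0.0479). Against WT it was 0.44 with D1709N (adjusted p = 0.206, 0.0235 with the block) and 0.59 with G1809R (0.0975, 0.00834 with the block). The other 2 Ccnb1 probes gave −0.67 (adjusted p = 0.0607, 0.013 with the block) and −0.54 (0.208, 0.0356 with the block) for WT against GFP, in a fit over all kept probes. All 3 probes were lower with WT in 3 of 3 pairs. Against WT these 2 probes gave 0.40 and 0.26 with D1709N and 0.55 and 0.47 with G1809R. Only the 0.55 passed with the block (0.0366).

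Ccne1, which with CDK2 opens S phase, gave 1.66, 1.29 and 2.19 with GFP and 0.31, 0.22 and 1.37 with WT. D1709N gave 2.24, 1.77 and 2.47, and G1809R gave 2.26, 1.67 and 2.41. Replicate 3 was the highest array of each group and replicate 2 the lowest, and WT replicate 3 lay above GFP replicate 2, so these groups overlapped. Within each replicate number WT was the lowest of the 4 arrays.

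The Ccne1 difference of WT from GFP was −1.08 (± 0.36 SE, adjusted p = 0.154), and with the block the SE was 0.16 and the adjusted p 0.00281. Against WT the differences were the largest positive ones of the 8 genes with G1809R, 1.48 (adjusted p = 0.0816, 0.00127 with the block), and with D1709N, 1.53 (0.069, 0.00107 with the block). The second Ccne1 probe gave −1.19 for WT against GFP (0.191, 0.00171 with the block), 1.72 for D1709N against WT (0.0843, 0.000657 with the block) and 1.56 for G1809R against WT (0.128, 0.000951 with the block). Both probes had the same sign. The second probe lay at −5.17 to −3.91 on the WT arrays, where the lowest level of any probe above background was −5.77 to −5.28. The size of its differences from WT is thus less certain. The brighter probe was also called without WT replicate 3 for D1709N (0.0332) and G1809R (0.0411) against WT.

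Ccne2, the second E cyclin, gave −2.85, −3.09 and −2.43 with GFP and −3.96, −4.04 and −3.41 with WT. D1709N gave −2.61, −2.31 and −1.96, and G1809R gave −2.64, −2.32 and −2.94. Every WT array lay below every other array, and D1709N had the highest mean.

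For Ccne2 the difference of WT from GFP was −1.01 (± 0.26 SE, adjusted p = 0.0681, 0.0178 with the block), at −0.94 to −1.11 in the 3 pairs. With D1709N it was higher than WT by 1.51 (adjusted p = 0.0223), a call lost without D1709N replicate 2 or 3 or WT replicate 1 or 2 (up to 0.1). With G1809R it was at 1.17 (0.0564, 0.0134 with the block). The pairs of G1809R and WT ran from 0.47 to 1.72.

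**Figure D2:**
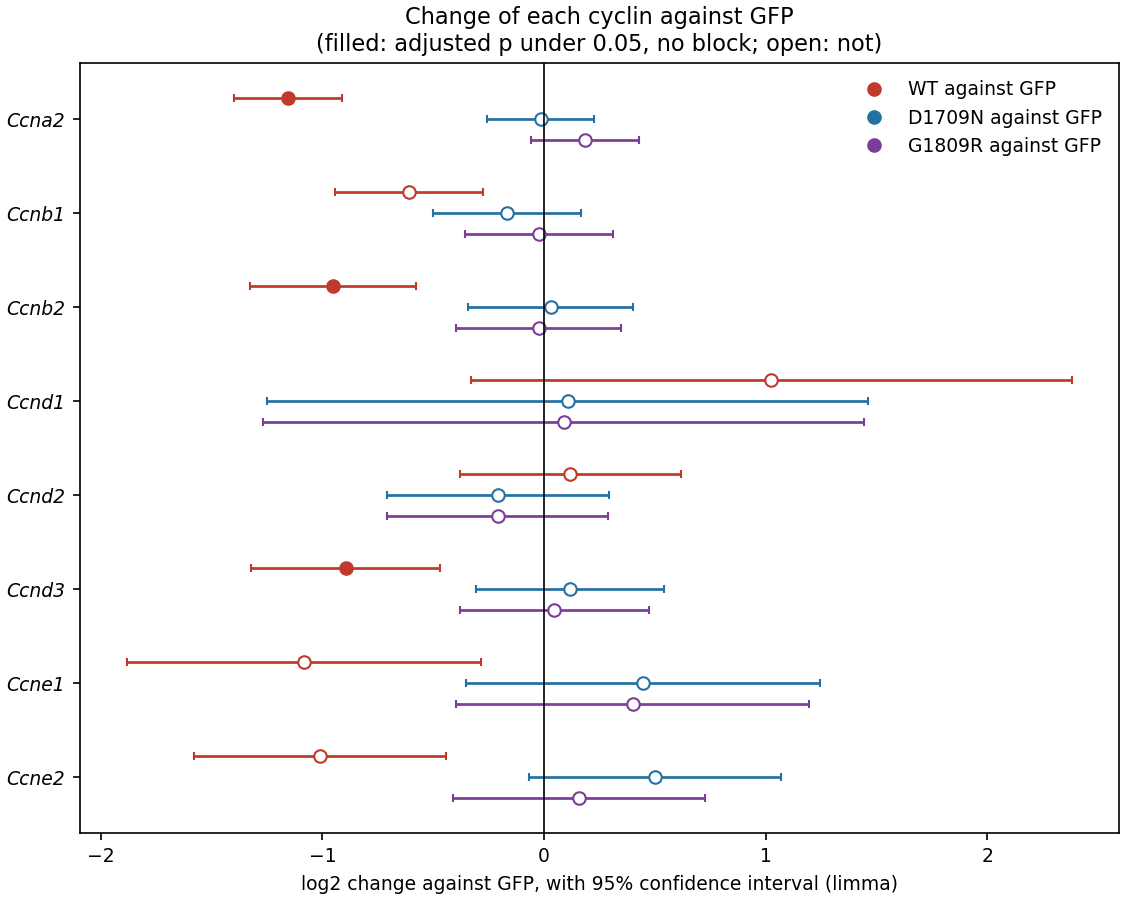
Log2 change of each cyclin (rows) against GFP in WT, D1709N and G1809R (x axis), from limma without a block, with 95% confidence intervals, filled where the adjusted p was under 0.05. The WT changes of Ccna2, Ccnb2 and Ccnd3 are filled at −1.16, −0.95 and −0.90, and all 16 mutant changes are open with intervals that hold 0.

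The D cyclins did not move together. Ccnd3 gave 4.83, 4.45 and 4.72 with GFP and 3.87, 3.41 and 4.04 with WT at its brighter probe. D1709N gave 4.95, 4.60 and 4.80, and G1809R gave 4.86, 4.47 and 4.82. All WT arrays lay below all others.

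Ccnd3 fell with WT by 0.90 (± 0.19 SE, adjusted p = 0.0389, 0.00083 with the block), in 3 of 3 pairs, and was higher than WT by 1.01 with D1709N (0.0329) and by 0.94 with G1809R (0.0435). When each of the 12 arrays was left out in turn, the call against GFP was made 2 times, without WT replicate 3 and without G1809R replicate 2 (adjusted p up to 0.142 otherwise). The call of D1709N against WT held in 4 of these fits and that of G1809R against WT in 0 (0.0508 to 0.142). The second Ccnd3 probe, of another transcript of the gene, gave 3.05, 3.25 and 3.50 with GFP and 2.26, 2.27 and 2.71 with WT. In a fit over all kept probes its difference of WT from GFP was −0.85 (adjusted p = 0.054, 0.00135 with the block), so both probes differed by a similar amount. Against WT the second probe gave 0.91 with D1709N (0.0565, 0.00142 with the block) and 0.93 with G1809R (0.0544, 0.00135 with the block). In that fit the brighter probe was not called for G1809R against WT (0.0525, 0.00131 with the block).

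Ccnd1, the D cyclin best known as a target of growth factor signals, gave −2.70, −4.36 and −2.94 with GFP and −1.81, −3.02 and −2.09 with WT. D1709N gave −2.56, −4.27 and −2.84, and G1809R gave −2.83, −4.16 and −2.74. Replicate 2 lay lowest in every group, the groups overlapped, and within each replicate number WT was the highest of the 4 arrays.

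The Ccnd1 difference of WT from GFP was 1.02 (± 0.61 SE, adjusted p = 0.512), and with the replicate block the SE was 0.13 and the adjusted p 0.00163. The 3 pairs gave 0.89, 1.34 and 0.85. Against WT it was at −0.92 with D1709N (0.597, 0.00329 with the block) and −0.94 with G1809R (0.665, 0.00329 with the block), lower in 3 of 3 pairs each. These Ccnd1 calls were made only with equal replicate numbers treated as pairs.

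Ccnd2 gave 1.43, 1.09 and 1.39 with GFP and 1.42, 1.18 and 1.67 with WT. D1709N gave 1.29, 0.71 and 1.29, and G1809R gave 1.26, 0.70 and 1.33. All 4 groups overlapped.

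The Ccnd2 difference of WT from GFP was 0.12 (95% interval −0.38 to 0.62, adjusted p = 0.956, 0.431 with the block), and its sign turned with scaling to the array median (−0.16, where the median of all genes was at −0.24). Against WT it was at −0.33 with D1709N (0.617, 0.0494 with the block) and −0.33 with G1809R (0.69, 0.0548 with the block). Both mutants lay below WT in 3 of 3 pairs.

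**Figure D3:**
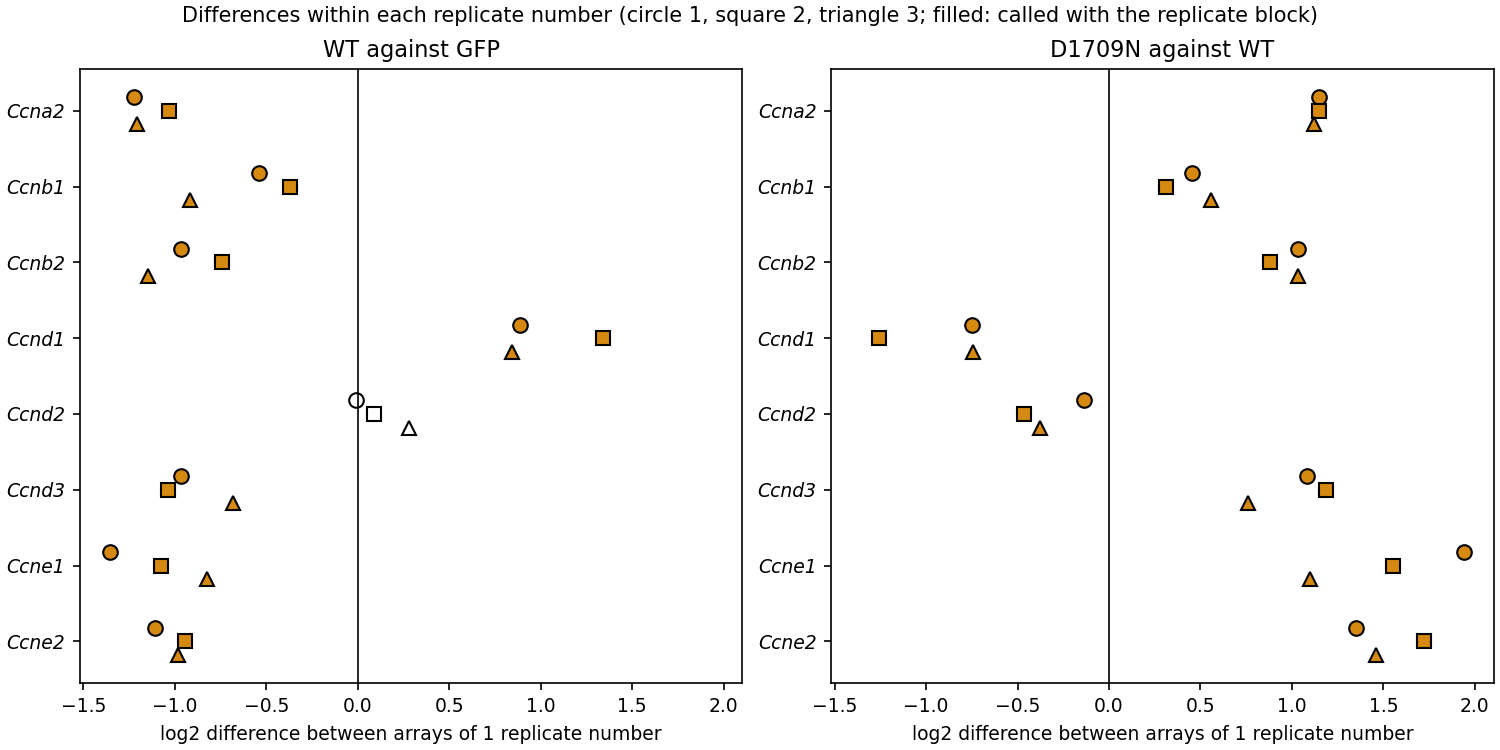
Log2 difference between the 2 arrays of 1 replicate number (x axis) for each cyclin (rows), WT against GFP on the left and D1709N against WT on the right, with circles, squares and triangles for replicates 1, 2 and 3 and filled points where the fit with the replicate block called the gene. On the left 6 genes lie below 0 in all 3 pairs and Ccnd1 lies above 0 at 0.85 to 1.34, and on the right these signs are turned and Ccnd2 lies below 0.

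Between each mutant and WT, the called cyclins were all higher with the mutant. With D1709N 4 of 8 were called higher, where 1.66% of all genes were called and 0.992% higher, and with the block 6 were higher and 2 lower, where 15.5% of all genes were called, 7.12% higher and 8.42% lower. With G1809R 3 of 8 were called higher, where 1.64% of all genes were called and 1.04% higher, and with the block 6 were higher and 1 lower, where 12.7% were called, 6.36% higher and 6.31% lower. Over all genes the calls for G1809R were 251 higher and 146 lower, and 2 higher and 4 lower with scaling to the array median. The medians of the 8 log2 differences were 1.00 and 0.94, beside −0.01 and 0.01 over all genes. These comparisons share the WT arrays with each other and with the comparison of WT and GFP, so they are not independent of one another.

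Against GFP, 0 of 8 cyclins were called with D1709N, where 0.0496% of all genes were, and 0 of 8 with G1809R, where 0.0124% were. At an unadjusted p under 0.05 limma gave 0 of the 8 in either comparison, where 7.21% and 6.64% of all genes passed. With the replicate block 0 of 8 were called as well, where 4.25% and 3.74% of all genes were, and the smallest unadjusted p was 0.0196 for Ccne1 with D1709N and 0.0318 for Ccne1 with G1809R. Ccne2 was at 0.50 with D1709N (95% interval −0.07 to 1.07, adjusted p = 0.753), the largest of these differences, and at 0.16 with G1809R (−0.41 to 0.73). Ccne1 was at 0.45 with D1709N (−0.35 to 1.25) and 0.40 with G1809R (−0.40 to 1.20), above GFP in 3 of 3 pairs each. For Ccna2 the intervals ran from −0.26 to 0.23 with D1709N and from −0.06 to 0.43 with G1809R, and its change with WT, −1.16, lies outside both. For Ccnd1 they spanned −1.25 to 1.46 and −1.27 to 1.44, which hold its difference with WT, 1.02, so these data do not separate the groups for that gene without the block.

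The mutants were also compared with each other. For G1809R against D1709N 0 of 8 cyclins were called, with or without the block, where 0% of all genes were called, and at an unadjusted p under 0.05 limma gave 0 of the 8 and 65 of all genes, or 0.269%. With the block the unadjusted p of Ccna2 was 0.0246. Ccna2 was at 0.20 (95% interval −0.04 to 0.44), higher with G1809R in 3 of 3 pairs and with no overlap of the arrays, which held for 2.46% of all genes in either direction. Ccne2 was at −0.34 (−0.91 to 0.23), with pairs at −0.04, −0.01 and −0.99, so G1809R replicate 3 sets most of it. The intervals of all 8 genes hold 0, and a difference inside them was not detectable with 3 arrays a group.

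The slides gave the same signs for the cyclins that were called. Between WT and GFP, slide 1 gave −1.22 for Ccna2, −0.97 for Ccnb2 and −0.97 for Ccnd3, and slide 2 gave −1.12, −0.94 and −0.86. Slide 1 holds WT replicate 1, so the slide 2 values also show these differences without it. With the replicate block and without WT replicate 1, an alternative chosen after seeing the data, 6 of 8 cyclins were called between WT and GFP, 7 between D1709N and WT and 8 between G1809R and WT, where 13.1%, 9.82% and 8.34% of all genes were called.

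Around the cyclins, genes of related function were counted in lists. For WT against GFP, 15 of 24 mitosis genes fell, 5 of 20 transcription factors of the cyclin genes fell and 4 of 12 CDKs and CDK activators fell, and 0 of each rose. Among CDK inhibitors and brakes 2 of 10 fell, among S phase genes 1 of 22 and among other cyclins 2 of 15. Of the 16 genes of cyclin turnover 0 fell, and 0 genes of these lists rose. At an unadjusted p under 0.05 limma gave 5 of the 16 turnover genes, where 15.4% of all genes passed. Of all genes 1.76% were called lower and 1.19% higher, and the count of 1 S phase gene is too small to set against that share. The medians were −0.83 for mitosis genes, −0.46 for CDKs and activators, −0.46 for inhibitors and brakes, −0.42 for transcription factors, −0.39 for S phase genes, −0.25 for turnover and −0.24 for other cyclins. With the block the numbers lower were 23, 10, 6, 6, 14, 6 and 6, in the order mitosis, transcription factors, CDKs, brakes, S phase, other cyclins and turnover, where 8.6% of all genes were called lower. With scaling to the array median, or with WT and GFP fitted alone, 0 genes of these lists were called. Without 1 GFP or WT array the smallest counts were 2 for transcription factors, 1 each for CDKs, brakes and other cyclins, and 0 for S phase genes.

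**Figure D4:**
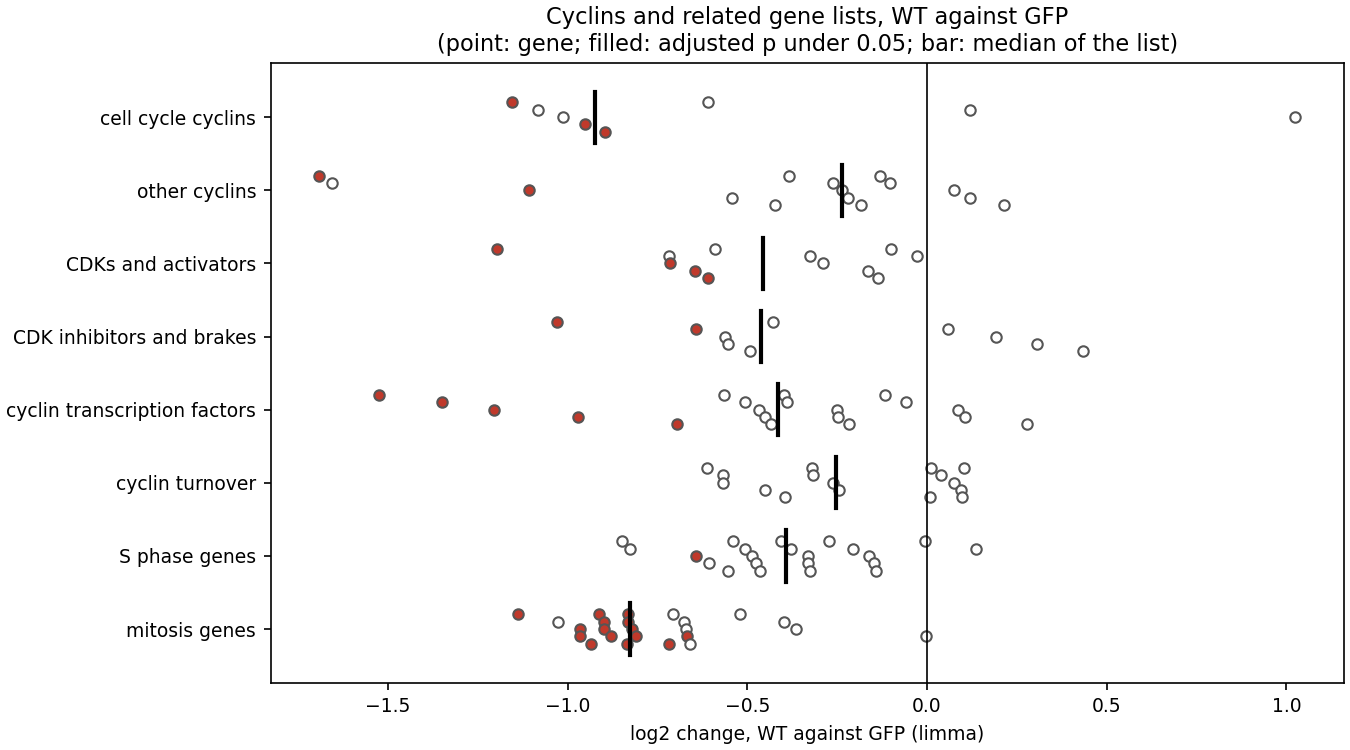
Log2 change of WT against GFP (x axis) for each tested gene of 8 lists (rows), filled where the limma adjusted p was under 0.05, with a bar at the median of each list. The 8 cyclins have their median at −0.92 and the 24 mitosis genes at −0.83, and no filled point lies above 0.

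Of the kinases' activators, Cdc25a, the phosphatase that frees CDK2 for S phase, fell by 1.20 (± 0.14 SE, adjusted p = 0.00422) and was called in each of the 12 fits that left out 1 array. Cdc25b fell by 0.72 (adjusted p = 0.0216, called in 6 of the 12 fits) and Cks2, a small subunit of CDK complexes, by 0.65 (0.0368, 3 of 12 fits). Among the brakes, Wee1, which holds CDK1 inactive, fell by 1.03 (0.00211, 12 of 12 fits) and Rb1, the retinoblastoma gene, by 0.64 (0.0301, 6 of 12 fits). The genes that fell in this list thus include the kinase that opposes cyclin B with CDK1.

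Among transcription factors, E2f2 fell by 1.52 (adjusted p = 0.0173, 9 of 12 fits). The atypical E2F genes E2f8 and E2f7 fell by 1.35 (0.0178, 9 of 12 fits) and 1.20 (0.00485, 12 of 12 fits). E2f2 activates S phase genes, whereas E2f7 and E2f8 repress them. Among other cyclins, Ccnf, the F-box cyclin of G2 that does not bind a CDK, fell by 1.69 (± 0.15 SE, 0.00173), more than any of the 8 cell cycle cyclins, and was called in 12 of 12 fits. Ccnj fell by 1.11 (0.0435) and was called in 0 of 12 fits.

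The mitosis genes named by the largest change were Kif23, a kinesin of the midbody, at −1.14 (adjusted p = 0.00797, 12 of 12 fits), Aurkb, a kinase of the chromosomal passenger complex, at −0.97 (0.0106, 11 of 12 fits) and the spindle checkpoint kinase Bub1 at −0.97 (0.00577, 12 of 12 fits). Without 1 GFP or WT array the count of 15 dropped to 3 (GFP replicate 3), 6 (GFP replicate 1), 8 (WT replicate 3) or 10 (each of the others). The S phase gene that fell was Gins1, a subunit of the replicative helicase, at −0.64 (0.029, 6 of 12 fits).

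Against WT, the same lists gave calls in the other direction only. With D1709N 9 of 24 mitosis genes were called higher, 3 of 12 CDKs and activators, 3 of 20 transcription factors, 3 of 22 S phase genes, 2 of 10 brakes, 1 of 15 other cyclins and 0 of 16 turnover genes. With G1809R these numbers were 13, 3, 4, 3, 3, 1 and 0. Of all genes 0.992% were called higher with D1709N and 1.04% with G1809R. With the block they were 22, 6, 7, 14, 5, 3 and 4 with D1709N and 21, 7, 8, 14, 5, 3 and 5 with G1809R, where 7.12% and 6.36% of all genes were called higher. With scaling to the array median the only call left in these lists was 1 transcription factor in each comparison, and with the 2 groups fitted alone 0 were left. The 9 mitosis genes became 0 to 3 without 1 D1709N array and 4 to 7 without 1 WT array, and the 13 became 2 to 3 without 1 G1809R array, 5 to 6 without 1 WT array and 8 without GFP replicate 3. Ccnf was higher than WT by 1.86 with D1709N (adjusted p = 0.00143) and by 1.74 with G1809R (0.00167), E2f2 by 2.19 (0.00657) and 2.21 (0.00704), and Cdc25a by 1.19 (0.00644) and 1.26 (0.00524). These 3 genes were called in 12 of 12 fits in both comparisons. Against GFP limma called 0 genes of these 7 lists with either mutant. At an unadjusted p under 0.05 it gave 0 to 3 genes a list, where 7.21% and 6.64% of all genes passed. With the block 1 of 20 transcription factors was called higher and 1 lower with each mutant, and 1 of 16 turnover genes lower with each. Of 15 other cyclins 1 was lower with D1709N, and of 10 brakes 1 was higher with G1809R. Of all genes 1.76% were called higher and 2.49% lower with D1709N, and 1.75% and 1.98% with G1809R. Counts of 1 in lists of this size are too small to set against those shares.

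Interferon-stimulated genes differed between the groups as well. Of 24 measured members 4 rose between WT and GFP, where 1.19% of all genes were called higher, and 23 with the block, where 9.18% were, and the median change was 3.27. With scaling to the array median, no filter on dim probes, or WT and GFP fitted alone, 0 were called. Against GFP limma called 0 with either mutant. At an unadjusted p under 0.05 it gave 7 with D1709N and 18 with G1809R, where 7.21% and 6.64% of all genes passed. With the block 8 with D1709N and 18 with G1809R were called higher, where 1.76% and 1.75% of all genes were. The 4 calls between WT and GFP became 0 when WT replicate 1 or 2, replicate 1 or 3 of GFP, or D1709N replicate 3 was left out. The sum of their levels, in multiples of the array's 75th percentile, was 47.3 to 148 on the GFP arrays, 152 to 593 with WT, 125 to 369 with D1709N and 151 to 500 with G1809R. Their part in the cyclin changes was not tested. On each array 23 or 24 of the 24 were well above background.

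Across the 12 arrays Ccna2 followed Ccnb2 (Pearson r = 0.94), Ccnd3 (0.92), Ccne1 (0.82), Ccnb1 (0.81) and Ccne2 (0.81). Ccnd1 followed Ccnd2 (0.87), and its r with Ccnd3 was −0.16. These are descriptions over arrays that share groups, replicate numbers and slides. The genes whose profiles were most like Ccna2 were Ssx2ip (0.99), Zcchc3 (0.98) and Baz2a (0.98). Ccnb1 was most like Cdca8 (0.97), Top2a (0.97) and Kif22 (0.96), and Ccnb2 most like Lin28a (0.98), Arhgef39 (0.97) and Prr11 (0.97). Ccne1 was most like Ugdh (0.97), Tk1 (0.97) and Rrm2 (0.97), and Ccne2 most like Clcc1 (0.97), Elmod2 (0.97) and Gmnn (0.96). Ccnd3 was most like Ctdspl (0.98), Ccdc71l (0.97) and Tgfbr2 (0.97), Ccnd1 most like Id2 (0.94), Bex4 (0.94) and Cd248 (0.94), and Ccnd2 most like Col5a1 (0.96), Fam214b (0.96) and Sh2b3 (0.96).

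In build GRCm38.p6 of RefSeq the genes lie at chr3:36564865-36573038 (Ccna2), chr13:100778739-100786486 (Ccnb1), chr9:70407689-70421554 (Ccnb2), chr7:144929931-144939831 (Ccnd1), chr6:127125162-127152188 (Ccnd2), chr17:47505051-47599689 (Ccnd3), chr7:38097984-38107490 (Ccne1) and chr4:11190433-11204779 (Ccne2). The 8 genes are spread over 7 chromosomes. The pair on chromosome 7, Ccnd1 and Ccne1, differed from GFP in opposite directions with WT. Neither of these differences was called in the fit without a block, and both were called with the replicate block. The positions of the probes within the transcripts were not used here.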

How the data were processed

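RNA of the 12 samples was labelled with Cy3 and hybridized to single-colour Agilent arrays, 1 array a sample. The deposited scanner files hold background-subtracted intensities from Feature Extraction (Agilent, version 11.0.1.1) with no scaling between arrays, per the file headers. The deposited log2 values (31362 probes, scaling not given in the sources used here) served as an alternative. Their column medians were 9.40 to 9.42.

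The log2 intensity minus the array's 75th percentile over non-control spots was tested with limma 3.58.1 in R 4.3.3, with the data.table package (version 1.17.8), in 1 fit over 12 arrays with group as the factor, two-sided. Kept were the 33024 probes that 1 or more groups showed well above background on all their arrays, and the probe with the highest mean stood for its gene. A gene is named through its RefSeq transcript (14734 of the 24184 tested), and 287 probes with all spots of an array flagged were left out. The scripts were tested on simulated data.

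Replicate numbers come from the titles. Deviations from the group means correlated at 0.60 to 0.85 between arrays of the same number and −0.68 to 0.20 otherwise. Such deviations cancel out within each group, which by itself lowers the values between unequal numbers. Replicate 1 also lay on slide 1 in every group. The block treats equal numbers as pairs, and why they deviated together was not tested. Groups come from the titles. The members and gene lists were chosen with earlier results of these data known. Named are all 8 cyclins, up to 3 called genes of a list with the largest change in each comparison (the text prints a selection for the mutants), and the 3 genes most correlated with each cyclin. Skp2, Mx1, Mx2 and Cd68 matched no probe. The number of arrays limits the precision. The planned normexp alternative used the median spot intensity, because the files do not hold the mean. One leukocyte marker is not reported here.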

Additional observations from a re-analysis of the deposited data

How the results depend on the processing

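The numbers of cyclins called depended on the setting. For WT against GFP 3 were called, and 0 with scaling to the array median, 1 with no filter on dim probes, 5 with only probes above background on all arrays, 0 with only the 2 groups in the fit, 7 with the replicate block, 5 with the slide block, 0 on slide 2 alone, 6 with the replicate block and WT replicate 1 left out, and 1 to 3 without 1 array. For D1709N against WT 4 were called, and 0 with the median, 2 with quantile normalization, 2 with the deposited table, 1 with no filter, 0 with the 2 groups, 8 with the replicate block, 0 on slide 2, 7 with the block and WT replicate 1 left out, and 1 to 4 without 1 array. For G1809R against WT 3 were called, and 0 with the median, 1 with quantile normalization, 1 with no filter, 0 with the 2 groups, 7 with the replicate block, 6 with the slide block, 1 on slide 2, 8 with the block and WT replicate 1 left out, and 1 to 2 without 1 array. The causes were not tested, other than that the 2-group and slide 2 fits hold fewer arrays. The comparisons with GFP of the mutants, and of the mutants with each other, had 0 calls in every setting, also with the replicate block. For all genes, WT against GFP gave 713 calls (2.95%), and 25 (0.103%) with the median, 206 (0.558%) with no filter and 4300 (17.8%) with the replicate block. It gave 4.58% with probes above background on all arrays, 8.73% with the slide block and 0.0124% with the 2 groups or on slide 2. D1709N against WT gave 1.66%, and 1.43% with quantile normalization, 1.61% with the deposited table, 0.149% with no filter and 15.5% with the replicate block. G1809R against WT gave 1.64%, and 1.36% with quantile normalization, 0.184% with no filter, 12.7% with the replicate block, 4.99% with the slide block and 0.0455% on slide 2.

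Scaling to the array median moved the median change of all genes to −0.24 for WT against GFP, 0.22 for D1709N against WT and 0.25 for G1809R against WT, and less than 0.1 otherwise. Under it the calls of all genes against WT were 2 higher and 1 lower with D1709N, and 2 higher and 4 lower with G1809R.

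The 48 single log2 changes were each fitted again under the alternatives. Called at first were 3 for WT against GFP, 4 for D1709N against WT and 3 for G1809R against WT. Of the values under an alternative, 1025 kept their sign and their side of the threshold, most of them not called either way. Another 95, all from the changes called at first, were no longer called, and 37 became called. The sign changed in 43, all of these among changes that were not called. Ccna2 (D1709N against GFP) was at 0.013 on slide 2. Ccnb2 (D1709N against GFP) was at −0.028 with the median, −0.007 with quantile normalization and −0.009 with the deposited table. Ccnd1 (G1809R against D1709N) was at 0.11 on slide 2. Ccnd2 (G1809R against D1709N) was at 0.015 with the median, 0.005 with normexp, 0 in the deposited table and 0.011 on slide 2, and Ccnd2 (WT against GFP) at −0.16 with the median. Without 1 array, the lowest and highest values for D1709N against GFP were −0.091 and 0.057 for Ccna2, −0.057 and 0.13 for Ccnb2 and −0.41 and 0.63 for Ccnd1. For G1809R against GFP they were −0.093 and 0.022 for Ccnb1, −0.15 and 0.091 for Ccnb2, −0.43 and 0.55 for Ccnd1, −0.064 and 0.17 for Ccnd3 and −0.001 and 0.34 for Ccne2. For G1809R against D1709N they were −0.18 and 0.061 for Ccnb2, −0.54 and 0.44 for Ccnd1, −0.19 and 0.20 for Ccnd2, −0.16 and 0.05 for Ccnd3 and −0.24 and 0.17 for Ccne1. For WT against GFP they were −0.002 and 0.24 for Ccnd2.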
